A study of Citrus maxima with 12 samples.

Results

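Of 32863 gene identifiers measured in pomelo fruit, 165 met a rule on a log2 scale of mean expression, given below. They were lower in diseased than in control fruit of the cultivar Jinlan and moved little on this scale in the cultivar Jinsha. Their summed expression was 10761 ± 742 FPKM in control and 4197 ± 355 FPKM in diseased Jinlan fruit (SD, n = 3 libraries per group), against 9586 ± 183 and 8632 ± 162 FPKM in Jinsha. FPKM expresses sequenced fragments relative to the length of the transcript and to all fragments mapped in that library. The 165 genes, called members here, were chosen by the mean FPKM of the 4 groups, with 1 added before taking log2. A member was lower by at least 1 on this log2 scale in diseased Jinlan fruit, lay between -0.5 and 0.5 in Jinsha, and had a Jinlan control mean of at least 3 FPKM. With 5 in place of the added 1, the same limits find 92 genes.

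The study sampled pomelo, the large-fruited citrus species Citrus maxima, and addresses how its fruit responds to yellow spot disease. Its 4 groups are Jinsha control, Jinsha disease, Jinlan control and Jinlan disease fruit, with 3 libraries each. The labels give cultivar, tissue (fruit) and treatment (control or disease), but no fruit age, harvest, tree or source of infection, and do not say whether the 3 libraries of a group came from separate fruits. P-values therefore measure the spread between these libraries, which may be technical.

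Diseased plant tissue commonly carries a changed set of transcripts, in which some rise as defence is engaged and others, often genes of growth and primary metabolism, are reduced. Resistance to a disease can differ between cultivars of one crop, and genes repressed in one cultivar and steady in another are a usual way to describe such a difference. The identifiers are not paired with names or products in the file and 0 were matched to one, so the roles of the members are not stated here, no gene list by function was counted, and the fruit tissue could not be checked against marker genes. In whole fruit tissue, fewer cells of a type and less RNA per cell cannot be told apart.

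Over all 12 libraries the table's FPKM values summed to between 550055 and 575107 per library. The number of sequenced fragments behind these values is unknown. Jinlan control replicate 3 stands apart from the other control libraries of its group in the members, as described further on, and the members' sums, classes and library orders are also given without it.

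Among 635 genes with at least 3 FPKM in control Jinlan fruit and a Jinlan decrease of at least 1 on the log2 scale, the members make up 26%. Another 273 were also lower by at least 1 in Jinsha, 135 were lower there by between 0.5 and 1, and 62 were higher by more than 0.5. Among all 13629 genes with at least 3 FPKM in control Jinlan fruit, 75.7% lay between -0.5 and 0.5 in Jinsha. The mirror rule, with the cultivars exchanged, finds 312 genes, and 267 genes with at least 3 FPKM in both control groups were lower by at least 1 in both cultivars. The median decrease of the members in Jinlan was 1.24, that of the mirror genes in Jinsha was 1.27, and that of the 267 shared genes was 1.61 in Jinlan and 1.65 in Jinsha; these values were set in part by the rules and were not tested against each other.

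**Figure D1:**
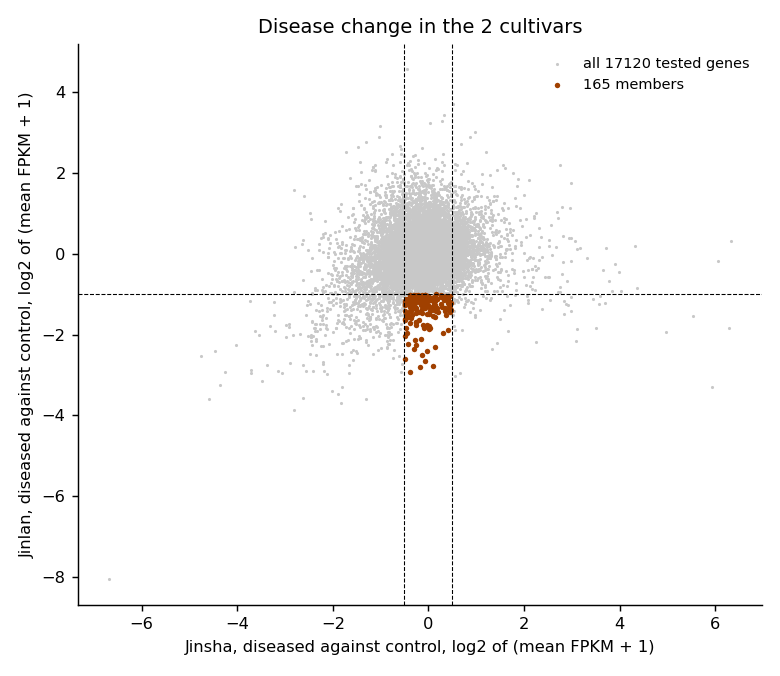
Disease change of each tested gene in Jinsha (horizontal) and Jinlan (vertical), as diseased against control fruit on the log2 scale of mean FPKM + 1. Grey points are the 17120 tested genes, brown points the 165 members, and dashed lines mark the limits of the rule at -1 in Jinlan and at -0.5 and 0.5 in Jinsha; the members fill the upper edge of their field most densely.

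The decrease in Jinlan was moderate for most members. Its log2 value ranged from -2.92 to -1.01 with a median of -1.24, and 128 members lay above -1.5 while 14 lay at -2 or below. On the FPKM scale, the diseased Jinlan mean of a member was at a median of 37.2% of the control mean (quartiles 29.3% and 43.4%). In Jinsha the corresponding median was 90.6% (quartiles 77.5% and 108%), with a range from 29.6% to 201%. The ends of this range were NewGene_3249 and NewGene_3982, both with low Jinsha means. With 1 added to these means their Jinsha log2 changes were -0.26 and 0.42, inside the limits of the rule. The Jinsha log2 change of a member was below 0 in 109 and above 0 in 56, with a median of -0.13. The medians over all tested genes were 0.01 in Jinlan and -0.02 in Jinsha.

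The limits of the rule cut through a continuous range. At the Jinlan limit the last member inside had a log2 change of -1.01 and the first gene outside -0.9992, with 17 members and 25 non-members within 0.05 of it. At the lower Jinsha limit the values were -0.499 inside and -0.5005 outside, with 13 genes on either side within 0.05, and at the upper limit 0.468 and 0.5004, with 5 inside and 8 outside. The lowest Jinlan control mean of a member was 3.03 FPKM, and 12 genes that met the other limits were left out for lower means, the nearest at 2.73 FPKM.

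All 165 members passed the filter of the fit over all genes (at least 1 FPKM in at least 3 libraries), which their control level made likely. The fit was made with limma on log2(FPKM + 1) for 17120 genes, and a gene is referred to as called where its Benjamini-Hochberg adjusted p was below 0.05. In the Jinlan disease comparison 163 members were called lower, where 30.3% of all tested genes were. For the same number, 163, every Jinlan control library lay above every diseased one, which held for 33.1% of tested genes. The disease change was called lower in Jinlan than in Jinsha for 160 members, against 27.2% of tested genes. All of these counts follow from how the members were chosen and are given as description. A small change in Jinsha was not always within the spread of the libraries, since 49 members were called lower there (30.9% of tested genes) and 23 higher (27.3% of tested genes), with 93 not called.

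The share of a library's total that the members took was close among the libraries of a group. Jinsha control replicates 1 to 3 held 1.69%, 1.71% and 1.64% of their total FPKM in the members, and Jinsha disease replicates 1.59%, 1.47% and 1.54%. Jinlan control replicates held 1.90%, 1.99% and 1.76%. Jinlan disease replicates held 0.704%, 0.718% and 0.819%. All 3 diseased Jinlan libraries were thus below every other library, all Jinlan control libraries above every Jinsha library, and Jinlan control replicate 3 was the nearest of its group to the Jinsha libraries.

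The 10 most abundant members, at 246 to 1158 FPKM in control Jinlan fruit, made up 48% of the summed control level. Without them the sums were 5595 ± 411 and 2139 ± 88.9 FPKM in control and diseased Jinlan fruit, and 4605 ± 15.6 and 4280 ± 75.1 FPKM in Jinsha (SD, n = 3). The rule fixes the direction of any such sum, also for the 155 less abundant members, so these sums describe sizes only. The log2 decreases of the 10 in Jinlan lay between -1.76 and -1.01. In control fruit their Jinlan means stood -0.31 to 0.60 from those of Jinsha on the log2 scale, and in diseased fruit -2.04 to -0.58.

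Jinlan control replicate 3 was the lowest library of its group for 143 of the 165 members and the highest for 3. Over all tested genes it was the lowest of its group for 43% and the highest for 27.6%. Relative to the Jinsha control mean of each member, the median log2 level was 0.50 in Jinlan control replicate 1, 0.50 in replicate 2 and 0.29 in replicate 3. The diseased Jinlan libraries were at -0.95, -0.87 and -0.82, and the diseased Jinsha libraries at -0.12, -0.16 and -0.11. In these medians the low library of the control group lay above the diseased ones. The rule favours this order, as it used the same libraries. Without it the summed level of the members in control Jinlan fruit was 11166 ± 337 FPKM (SD, n = 2). The rule applied without it finds 186 genes, without Jinlan disease replicate 3 it finds 184, and without both it finds 208.

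**Figure D2:**
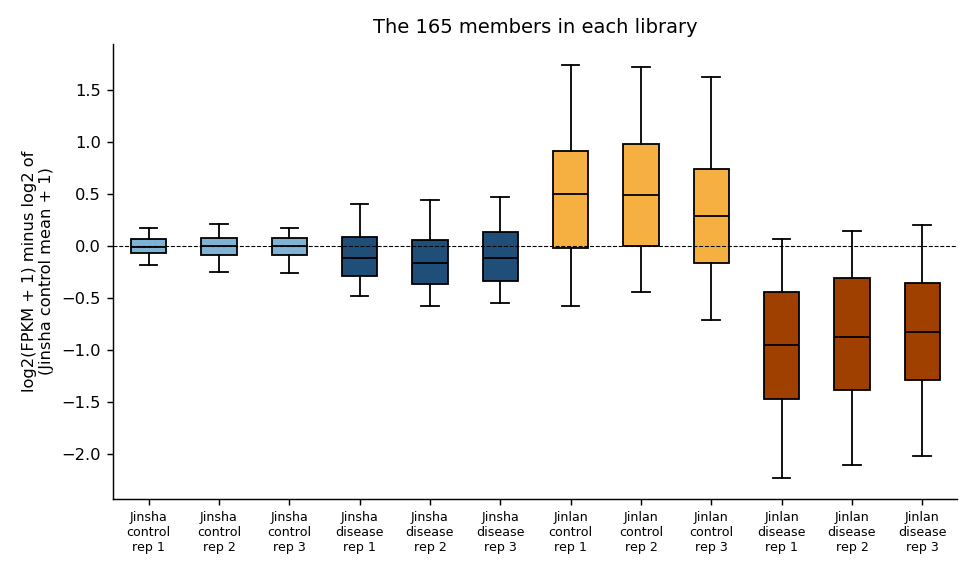
Level of the 165 members in each library, as log2(FPKM + 1) minus the log2 of the member's Jinsha control mean + 1. Boxes span the quartiles with the median as a line, whiskers reach the 5th and 95th percentiles; boxes of Jinsha libraries lie around 0, those of Jinlan control mostly above it with replicate 3 lowest, and those of diseased Jinlan fruit below it.

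To read the rule in libraries that had no part in choosing the genes, it was applied to the means of 2 replicate numbers. The libraries with the third number were then compared singly. The genes chosen in this way differ from the members: of the 143, 153 and 215 chosen, 124, 135 and 153 are members. Replicates 2 and 3 chose 143 genes, of which 139 were lower in diseased Jinlan replicate 1 than in control replicate 1, with a median log2 difference of -1.35, and 109 met both the Jinlan and the Jinsha limit there. Replicates 1 and 3 chose 153 genes, of which 151 were lower in replicate 2 (median -1.36) and 98 met both limits. Replicates 1 and 2 chose 215 genes, of which 213 were lower in replicate 3 (median -1.03) and 82 met both limits. Both limits were thus met in the library left out by 76.2%, 64.1% and 38.1% of the chosen genes. Among all 13629 genes with at least 3 FPKM in control Jinlan fruit (a mean that includes the library left out), 1.78%, 1.54% and 0.778% met both limits in replicates 1, 2 and 3. Over these 13629 genes the median Jinlan log2 difference was -0.03, -0.03 and 0.01 in the same replicates, and the share of them that was lower is not given. The counts of chosen genes that were lower are therefore description only. If the libraries of a group are technical, the library left out is no independent sample. With 1 library per group all of these are values without a test. Of the 165 members, 101 were chosen under all 3 of these choices.

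Replicates varied more in the members than in tested genes with at least 3 FPKM in control Jinlan fruit as a whole. The median coefficient of variation of the members was 8.38% in Jinsha control, 9.19% in Jinsha disease, 9.52% in Jinlan control and 10.2% in Jinlan disease fruit. For all such genes it was 5.93%, 6.06%, 5.99% and 5.71%. The part of expression level in this difference was not tested.

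The members covered the range of fruit expression levels. In control Jinlan fruit 49 members had a mean of 3 to 10 FPKM, 51 had 10 to 30, 41 had 30 to 100 and 24 had at least 100 FPKM, which is 1.10%, 0.998%, 1.40% and 2.16% of the tested genes at these levels. The expression left in diseased Jinlan fruit was at a median of 30.8%, 37.8%, 40.3% and 43.4% of control in the same order. The added 1 in the rule asks more of low genes, which sets part of this order. In 14 members the diseased Jinlan mean was below 1 FPKM.

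The most abundant member, Cg5g031600, was singled out after its values had been seen. It was at 1053, 1330 and 1091 FPKM in control and at 404, 311 and 663 FPKM in diseased Jinlan fruit. In Jinsha it was at 1347, 1338 and 974 FPKM in control and at 1179, 907 and 961 FPKM in diseased fruit. Its Jinlan disease libraries lay below all the others, and among them replicate 3 was the highest. The next, Cg6g019580, was at 962, 1036 and 926 FPKM in control Jinlan fruit and at 278, 307 and 323 FPKM in diseased fruit. Its Jinsha libraries, at 642, 582 and 698 FPKM in control and 484, 619 and 508 FPKM in diseased fruit, lay between both Jinlan groups without overlap.

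On the log2 scale of mean FPKM + 1, the largest decrease in Jinlan was that of Cg7g019010. Some members, such as Cg8g018240, kept a smaller share of their Jinlan control mean (8.61% against 11.0%). Control Jinlan libraries of Cg7g019010 were at 40.1, 43.2 and 34.8 FPKM and its diseased libraries at 3.46, 4.37 and 5.18 FPKM. In Jinsha it was at 27.6, 34.8 and 22.2 FPKM in control and 20.3, 20.9 and 23.4 FPKM in diseased fruit. Control fruit of both cultivars overlapped narrowly, and the diseased Jinlan libraries lay below all the others. CgUng000250 followed, from 30.8, 33.5 and 25.0 FPKM in control to 3.32, 3.54 and 3.32 FPKM in diseased Jinlan fruit. Its Jinsha libraries were at 6.46, 7.63 and 7.20 FPKM in control and at 8.01, 5.18 and 5.42 FPKM in diseased fruit. Here Jinlan control fruit stood above all other libraries and the decrease ended below every Jinsha library. The diseased Jinlan mean was 3.39 FPKM, beside 7.10 and 6.21 FPKM in control and diseased Jinsha fruit. The log2 changes on group means were -2.92 and -2.81 in Jinlan and -0.37 and -0.17 in Jinsha.

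These genes show that a similar decrease started from different standings of Jinlan towards Jinsha, so the cultivars were compared in control and in diseased fruit. The rule sets no limit on either difference, but it uses the same libraries and fixes how both relate: the difference in diseased fruit has to lie at least 0.5 below that in control fruit. In control fruit, limma called 93 members higher in Jinlan (21.2% of all tested genes) and 22 lower (36.8% of all tested genes), with 50 not called. In diseased fruit it called 125 lower in Jinlan (38.7% of all tested genes) and 6 higher (28.6% of all tested genes), with 34 not called. The median log2 difference, Jinlan against Jinsha, was 0.45 in control and -0.78 in diseased fruit for the members, and -0.09 and -0.07 over all tested genes. A rule that takes genes with a large Jinlan decrease favours high control and low diseased values, so these counts are description and not independent of the choice.

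By their control level the members fell into 3 classes. In 77 members the Jinlan control mean was above that of Jinsha by at least 0.5 on the log2 scale, with median levels of 14.4 and 7.37 FPKM. Their median in diseased Jinlan fruit was 5.38 FPKM, beside 7.56 FPKM in diseased Jinsha fruit. In diseased fruit 47 of the 77 lay within 0.5 of Jinsha, 26 were lower by at least 0.5 and 4 were higher by at least 0.5. For many of this class the cultivar gap of control fruit was thus small or turned in diseased fruit.

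In 76 members control fruit of the cultivars lay within 0.5, with medians of 23.4 FPKM in Jinlan and 21.3 FPKM in Jinsha. Their medians in diseased fruit were 8.80 and 21.6 FPKM, and 73 of the 76 were lower in Jinlan by at least 0.5. The rule itself places all 76 lower in Jinlan in diseased fruit, so this count is description. In the last 12 members Jinlan was lower by at least 0.5 already in control fruit (29.5 against 50.2 FPKM in the medians), and was further below Jinsha in diseased fruit (12.1 against 41.8 FPKM). The rule requires the difference of these 12 to be lower still in diseased fruit. The median log2 decrease in Jinlan was 1.27, 1.19 and 1.42 in the 3 classes in this order. Without Jinlan control replicate 3 the classes held 83, 70 and 12 members.

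**Figure D3:**
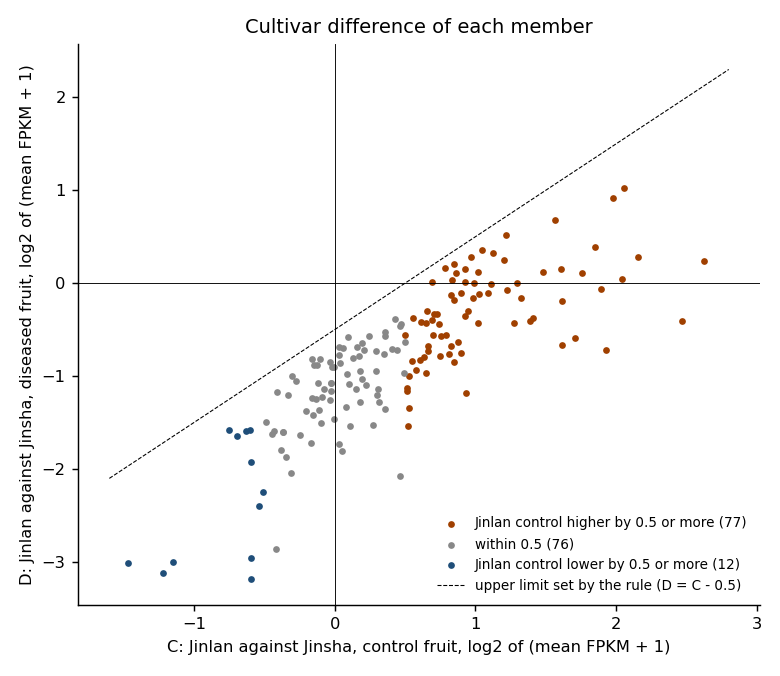
Difference of Jinlan against Jinsha for each member in control fruit (horizontal) and diseased fruit (vertical), on the log2 scale of mean FPKM + 1, coloured by class of control level (77, 76 and 12 members). The dashed line is the limit set by the rule, below which all members have to lie; most of the first class lie near 0 in diseased fruit and all of the other classes below it.

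Read by single libraries, the members took 4 main courses. For 55 members the Jinlan control libraries overlapped the range of the 6 Jinsha libraries and every diseased Jinlan library lay below it, an order found in 14.1% of tested genes. For 42 members every Jinlan control library lay above and every diseased Jinlan library below all Jinsha libraries, an order found in 1.09% of tested genes. For 41 members the Jinlan control libraries lay above all Jinsha libraries and the diseased ones overlapped them, which held for 5.47% of tested genes. For 19 members both Jinlan groups lay below all Jinsha libraries, which is 11.5% of the members and was found in 13.0% of tested genes. For 4 members, 2.42%, both lay above, as they did in 6.37% of tested genes. In the remaining 4 both Jinlan groups overlapped the Jinsha range. Without Jinlan control replicate 3 the first 3 counts were 43, 54 and 42. The diseased Jinlan mean was the lowest of the 4 groups for 138 members (32.2% of tested genes) and the Jinlan control mean the highest for 109 (15.4% of tested genes), and the rule favours both.

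The members highest in Jinlan relative to Jinsha control fruit were Cg2g017580 and Cg8g018240. Cg2g017580 was at 7.86, 5.24 and 6.19 FPKM in control Jinlan fruit and at 0.133, 0.283 and 0.196 FPKM in control Jinsha fruit. In diseased fruit it was at 0.411, 0.523 and 0.274 FPKM in Jinlan and at 0.239, 0.115 and 0.211 FPKM in Jinsha. It was thus above 1 FPKM in control Jinlan fruit alone. The log2 difference in control fruit was 2.61 (SE 0.13, adjusted p = 1.34e-08 with limma), and in diseased fruit the cultivars were not called apart (0.24, SE 0.13, adjusted p = 0.116), though they were at 0.80 with a pseudocount of 0.1.

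Cg8g018240 was likewise highest in control Jinlan fruit, but was above 1 FPKM in every Jinsha library too. It was at 15.0, 15.2 and 13.1 FPKM in control Jinlan fruit and at 1.59, 2.05 and 1.70 FPKM in control Jinsha fruit. Diseased libraries were at 0.993, 1.53 and 1.21 FPKM in Jinlan and at 1.92, 2.73 and 1.25 FPKM in Jinsha, and these overlapped. The log2 differences were 2.47 (SE 0.16, adjusted p = 8.72e-08 with limma) in control fruit and -0.38 (SE 0.16, adjusted p = 0.0455) in diseased fruit, the second of which was no longer called in 14 of 19 refits.

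The members lowest in Jinlan relative to Jinsha control fruit were Cg3g013530 and Cg1g008210. Cg3g013530 was at 9.21, 11.1 and 9.32 FPKM in control and at 3.89, 3.90 and 3.99 FPKM in diseased Jinlan fruit. In Jinsha it was at 30.9, 28.1 and 28.1 FPKM in control and at 38.9, 42.2 and 34.9 FPKM in diseased fruit. The Jinsha groups did not overlap either, and diseased fruit was the higher there. The log2 difference between the cultivars was -1.47 (SE 0.08, adjusted p = 3.00e-08 with limma) in control fruit and -3.00 (SE 0.08, adjusted p = 2.02e-11) in diseased fruit.

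Cg1g008210 was at 29.2, 29.0 and 26.7 FPKM in control and at 11.0, 11.1 and 7.01 FPKM in diseased Jinlan fruit. In Jinsha its control libraries, at 66.0, 60.5 and 75.0 FPKM, lay below its diseased libraries, at 90.5, 93.0 and 92.0 FPKM. It was also among the 2 members lowest in Jinlan in diseased fruit, with a log2 difference of -3.14 (SE 0.13, adjusted p = 8.59e-10 with limma) against -1.21 (SE 0.13, adjusted p = 6.52e-06) in control fruit. Cg3g013530 and Cg1g008210 thus came close to the upper Jinsha limit of the rule, with log2 changes there of 0.40 and 0.45.

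Of the 6 members called higher in Jinlan in diseased fruit, Cg1g008500 and Cg7g004970 had the largest differences among those with at least 5 FPKM there and no overlap. Cg7g002490, with a larger log2 difference of 1.03 (SE 0.15, limma), lay below that level. Cg1g008500 was at 228, 223 and 202 FPKM in control and at 89.5, 88.2 and 107 FPKM in diseased Jinlan fruit. Its Jinsha libraries were at 55.5, 54.4 and 53.5 FPKM in control and at 57.5, 44.1 and 47.4 FPKM in diseased fruit. The decrease in Jinlan thus ended above every Jinsha library. Cg7g004970 was at 245, 249 and 213 FPKM in control and at 94.3, 112 and 102 FPKM in diseased Jinlan fruit. In Jinsha it was at 72.9, 76.6 and 87.7 FPKM in control and at 73.5, 61.5 and 56.9 FPKM in diseased fruit, again below both Jinlan groups. In diseased fruit the log2 differences were 0.92 (SE 0.09, adjusted p = 2.22e-06 with limma) for Cg1g008500 and 0.68 (SE 0.10, adjusted p = 6.25e-05) for Cg7g004970.

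**Figure D4:**
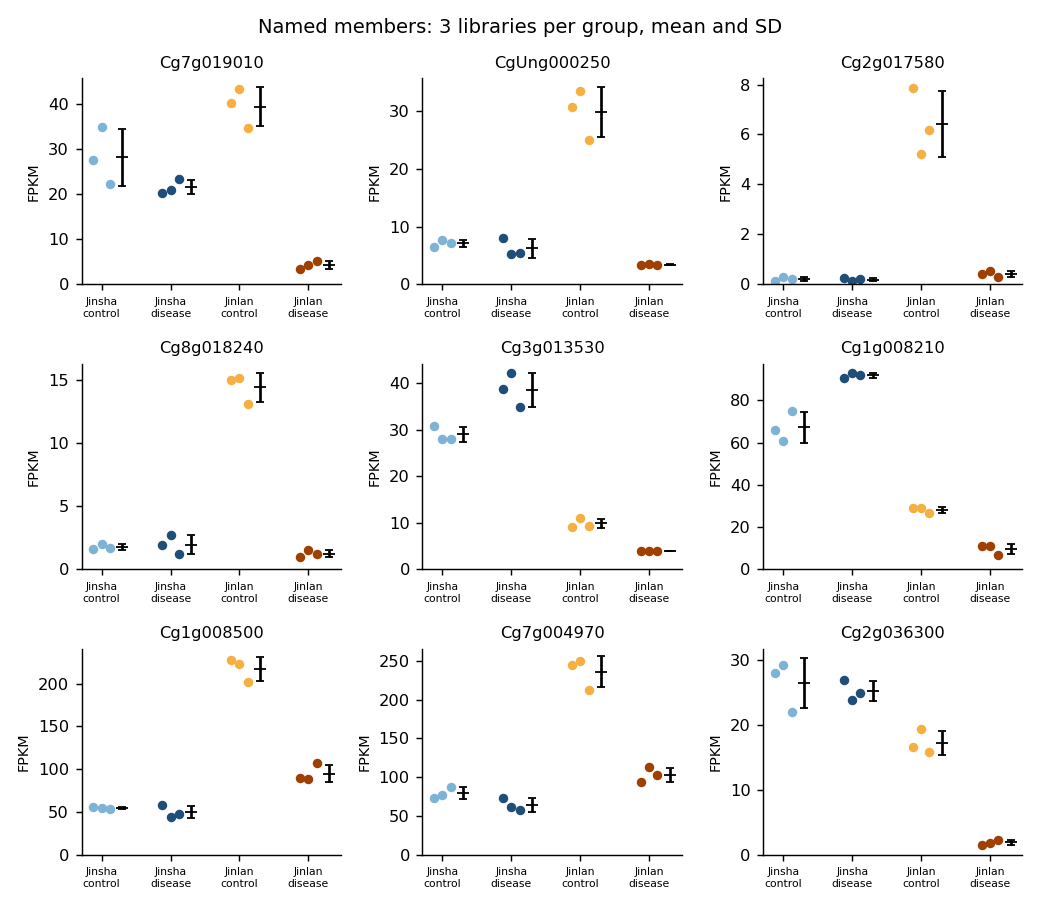
FPKM in each of the 3 libraries of each group (points) with mean and SD (bars) for the 9 members named for a large decrease or cultivar difference at 5 FPKM or more, each on its own axis from 0. Diseased Jinlan libraries lie below Jinlan control libraries in all 9, from a control level above, near or below that of Jinsha.

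The member lowest in Jinlan in diseased fruit was Cg2g036300, at 16.6, 19.3 and 15.8 FPKM in control and at 1.54, 1.83 and 2.27 FPKM in diseased Jinlan fruit. In Jinsha it was at 28.0, 29.2 and 22.0 FPKM in control and at 27.0, 23.8 and 24.9 FPKM in diseased fruit. The log2 difference between the cultivars was -3.19 (SE 0.12, adjusted p = 2.52e-10 with limma) in diseased fruit and -0.59 (SE 0.12, adjusted p = 0.000864) in control fruit.

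Identifiers next to it in number were also members, a pattern noticed after the values had been seen. Identifiers of the table rise in steps of 10, and Cg2g036290, Cg2g036300, Cg2g036320 and Cg2g036330 are all members. Whether numbers follow the order of genes on a chromosome is not given in the sources used here. Cg2g036290 was at 8.35, 7.78 and 6.69 FPKM in control and 1.96, 1.85 and 2.20 FPKM in diseased Jinlan fruit. Cg2g036330 was at 9.37, 10.8 and 8.83 FPKM in control and 0.833, 1.13 and 0.707 FPKM in diseased Jinlan fruit. The identifier between them that is no member, Cg2g036310, had means of 0.484 and 0.152 FPKM in control and diseased Jinlan fruit, below the 3 FPKM the rule asks for. Its Jinlan log2 change, -0.37 with 1 added to the means, also missed the limit of -1.

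Cg2g036290, Cg2g036300 and Cg2g036330 had Jinlan log2 changes of -1.52, -2.66 and -2.50, and cultivar differences in control fruit of -0.44, -0.59 and -0.59. Cg2g036320 was listed at 0 in single libraries of 3 groups, so no change is read from it. The identifiers on either side had smaller changes. Cg2g036280 had log2 changes of -0.47 in Jinlan and -0.35 in Jinsha, and Cg2g036340 had -0.34 and 0.17. Both were higher in Jinlan than in Jinsha control fruit, by 0.17 and 0.43. Whether the 4 are near-identical copies that share reads was not tested, as no sequence was used.

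**Figure D5:**
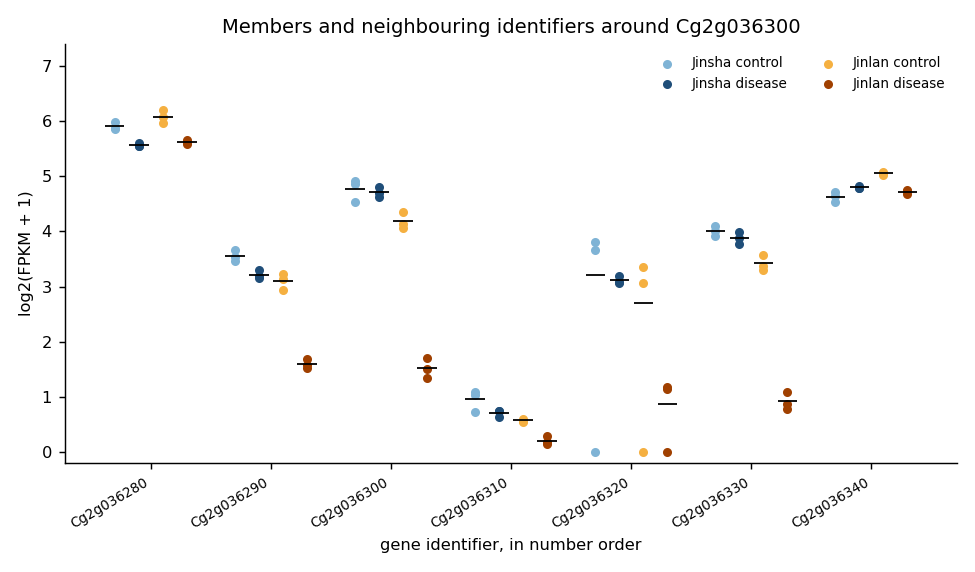
Expression, as log2(FPKM + 1), of 7 consecutive gene identifiers in number order, with the 3 libraries of each group as points and the log2 of the group's mean FPKM + 1 as black lines. Diseased Jinlan libraries lie below the others in 3 of the 4 members and not in the flanking Cg2g036280 and Cg2g036340, and Cg2g036320 is listed at 0 in single libraries of 3 groups.

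Over all members, 7 pairs of identifiers adjacent in number were found, with 14 members in them, of 156 members whose identifiers carry such numbers. The table holds 10774 such adjacent pairs with both genes tested, and in 207 of them at least 1 gene is a member. In 6 of the 7 pairs both genes lay on the same side of Jinsha in control fruit, a share that is not given for all adjacent pairs. Members were called higher in Jinlan control fruit more often than lower (93 against 22), which favours the same side. Among the 6 are Cg2g036320, from which no change is read, and Cg2g036330. Cg1g008210 also belongs to an adjacent pair. Its partner Cg1g008200 was at 28.1, 27.9 and 24.6 FPKM in control and 11.7, 13.3 and 11.2 FPKM in diseased Jinlan fruit. The means of Cg1g008200 were 26.9 and 12.1 FPKM, beside 28.3 and 9.72 FPKM for Cg1g008210.

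By the prefix of the identifier, members were spread over all 11 prefixes in the table. They made up 0.964% of the tested genes as a whole, and between 0.272% (Cg4g, 4 of 1473) and 1.54% (CgUng, 7 of 454) by prefix. Identifiers named NewGene held 9 members, 0.849% of those tested.

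Of the 165 members, 4 were listed at 0 in at least 1 library, and in 3 of these a 0 stood beside values of at least 3 FPKM in the same group. Cg2g016550 was at 18.5, 18.8 and 14.5 FPKM in control Jinlan fruit, and at 17.1 FPKM in diseased replicate 2 with replicates 1 and 3 listed at 0. It was also listed at 0 in Jinsha control replicate 3 and Jinsha disease replicate 2, with the other Jinsha libraries between 22.6 and 28.1 FPKM. Its diseased Jinlan library with a value thus lay within the range of the control libraries, and its place among the members rests on the zeros.

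Cg2g036320 was listed at 0 in Jinlan control replicate 1, in Jinlan disease replicate 3 and in Jinsha control replicate 2, with 9.22 and 7.33 FPKM in the other Jinlan control libraries and 1.26 and 1.22 FPKM in the other diseased ones. Cg2g007930 was at 5.25, 5.52 and 4.56 FPKM in control Jinlan fruit and listed at 0 in all 3 diseased libraries, but also in 3 of the 6 Jinsha libraries, the others being at 3.27 to 3.82 FPKM. A listed 0 can be a failed estimate, so no fold change is read from these genes. Cg2g016550 and Cg2g036320 were the 2 members not called lower in diseased Jinlan fruit. Without these 3 genes the calls between cultivars were 93 higher and 22 lower in control fruit and 6 higher and 124 lower in diseased fruit, among 162 members.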

How the data were processed

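Messenger RNA was sequenced in 12 libraries of pomelo fruit, grouped by cultivar and treatment in the labels. The authors deposited FPKM values per gene and library; how reads were aligned and quantified, and on which genome build, is not given in the sources used here. Depth is unknown: low values share no common step from which it could be read. No pair of libraries shared more than 0.00456% of nonzero values. The members and lists were chosen with earlier results of these data known.

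Group means and log2(mean FPKM + 1) gave the members and classes. Differences between cultivars were fitted with limma 3.58.1 in R 4.3.3 across all genes that reached 1 FPKM in 3 or more libraries, on log2(FPKM + 1) with 4 group means and a mean-variance trend, and adjusted by the Benjamini-Hochberg method. Fold changes on this scale are understated for low genes. The fit was also run on simulated data in which few genes were changed. In these data many genes were called between the cultivars, so that run does not measure the error of the calls here. Plots used matplotlib 3.10.9 (Python 3.11.15).

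Since identifiers carry no names, at most 2 per direction and comparison were named: the largest Jinlan decreases, and the largest called cultivar differences without overlap and with at least 5 FPKM in the higher group. Identifiers beyond these were singled out after their values were seen.

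Alternatives were pseudocounts of 0.1 and 5, no filter (genes with a value above 0 in any library), median-ratio scaling, the compared groups alone, a block for the replicate number, and fits that leave out libraries.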

Additional observations from a re-analysis of the deposited data

Results flagged for a closer look

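The disease change differed between the cultivars, by the interaction term of the limma fit, for 160 of the 165 members; the rule that chose the members fixes this difference, so the count is no separate evidence. The fitted log2 differences of the named members, Jinlan change minus Jinsha change, were -2.85 for Cg8g018240, -2.61 for CgUng000250, -2.61 for Cg2g036300, -2.57 for Cg7g019010, -2.37 for Cg2g017580, -1.93 for Cg1g008210, -1.54 for Cg3g013530, -1.05 for Cg1g008500 and -0.88 for Cg7g004970. With 3 libraries per group, no library was tested as an outlier.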

How the results depend on the processing

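The number of members was 165, and 193 with a pseudocount of 0.1, 92 with a pseudocount of 5, which by its construction shrinks the change of low genes, and 173 after median-ratio scaling, all 165 members among them. Leaving out single libraries or 1 replicate number gave 143 to 215 members, and 112 of the 165 were found without each of the 12 libraries in turn. For the fixed 165 members, those called higher in Jinlan control fruit numbered 91 to 95 and those called lower 19 to 25 when libraries were left out one by one; in diseased fruit 119 to 125 were called lower and 5 to 8 higher. These 4 counts stayed within 1.5 times their value under every alternative run. Over all tested genes, the share of higher calls among those between the cultivars in control fruit went from 36.5% to 50.5% with median-ratio scaling, while that of the members went from 80.9% to 82.6%. The 18 cultivar differences of the 9 named members kept direction and call in 325 of 342 refits and direction in all. Direction could not turn in many of these refits, since the difference itself stays the same in them. They are those with no filter, the replicate block, the compared groups alone, or a library of the other treatment left out. The exceptions were Cg8g018240 in diseased fruit, not called in 14 refits (-0.38 to -0.15), Cg7g019010 in control fruit, not called without Jinsha control replicate 3 (0.33) or Jinlan control replicate 2 (0.42), and Cg2g017580 in diseased fruit, called with a pseudocount of 0.1 (0.80). Without both Jinlan replicate 3 libraries the level classes held 83, 70 and 12 members. The values without both Jinlan replicate 3 libraries, and the sums, classes and library orders without the control one, were chosen with the data already seen.

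Same-numbered replicates of the cultivars did not deviate together (correlations of -0.021 to 0.040 across genes), so the numbers were not taken as pairs. In 1 of 6 cases a library correlated best with its own number. Whether same-numbered control and diseased libraries of a cultivar deviate together was not tested. With the replicate block 93 members were higher and 22 lower in Jinlan control fruit, and 6 higher and 124 lower in diseased fruit. The FPKM values carry no depth, which limits what can be said of genes near 0.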
